A study of Mus musculus with 54 samples.

Results

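The collagen genes of the mouse were read across cultured 4T1 clones, tumors and lung metastases. They were taken by name, as every row of the expression table whose symbol is Col, a type number, the letter a and a chain number. This gave 44 of 23481 rows. None of the 44 lay at the floor of the table, which stands for 0 reads, in all 54 libraries. Col13a1 reached no more than 3 reads in any library. At the other end, 17 members had a read in all 54 libraries.

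4T1 is a mouse mammary carcinoma line that spreads to the lung from the mammary gland. The study grew 23 clonal lines from single sorted 4T1 cells and asked which genes are high in the clones that enter the blood vessels. Clones E and T are labelled intravasating, and clones A to D, F to S and U to W non-intravasating. Beside them stand 2 tumors labelled orthotopic (Tumor 1 and Tumor 2) and 2 lung metastases (Lung 1 and Lung 2), and every clone and specimen has libraries A and B. No genotype, host strain, age or treatment is given for any group, each clone is 1 cell's descent, and whether host cells were removed from the specimens is not given in the sources used here. Nothing tells whether the libraries of a unit came from separate cultures or pieces, so p-values that rest on libraries measure only the spread between them, which may be technical.

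Libraries held 8849257 to 31609870 reads. In both lung metastases library A had a read in more genes (20278 and 19868) than library B (16604 and 16972). Library B of Tumor 2 had the fewest reads of the tumors, 12183058. Values below are normalized counts given as the mean of libraries A and B of each unit. A difference is on the deposited log2 scale, which understates the change of genes with few counts. Each difference was tested with limma over all genes that passed a filter on low counts, with Benjamini-Hochberg adjustment and a threshold of 0.05.

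Collagens are secreted proteins in which 3 chains wind into a triple helix. Fibrillar types such as I, III and V assemble into the cable-like fibres of connective tissue and are made mostly by fibroblasts. Type IV forms the sheet of basement membranes, which epithelial and endothelial cells lay down beneath themselves. Other types bead along fibres, anchor sheets to fibres or span the cell membrane.

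Cultured clones expressed a short list of collagens at high levels. The clone median was at least 100 normalized counts for 10 members, below 10 for 28 and exactly 0 for 11. Collagens together took 0.0725% to 0.166% of a clone's reads, with a median of 0.105%. The share was 0.148% in each tumor, and 0.113% and 0.111% in the lung metastases. Set per kilobase of annotated exon, Col8a1 led in the clones with a mean level of 724 counts per kilobase. It encodes a short network-forming chain. Col4a1 followed at 492 and Col4a2 at 430, the chains of the ubiquitous basement membrane heterotrimer. Then came Col18a1 at 252, whose protein carries endostatin at its end, and Col7a1 at 159, the anchoring fibril of epithelia. Col6a1 (116), Col5a1 (75.1), Col16a1 (73.5), Col4a5 (47.8) and Col12a1 (17.6) complete the 10 abundant members. The chief fibrillar genes were near the floor on this scale, with 0.465 counts per kilobase for Col1a1 and 0.0131 for Col3a1.

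**Figure D1:**
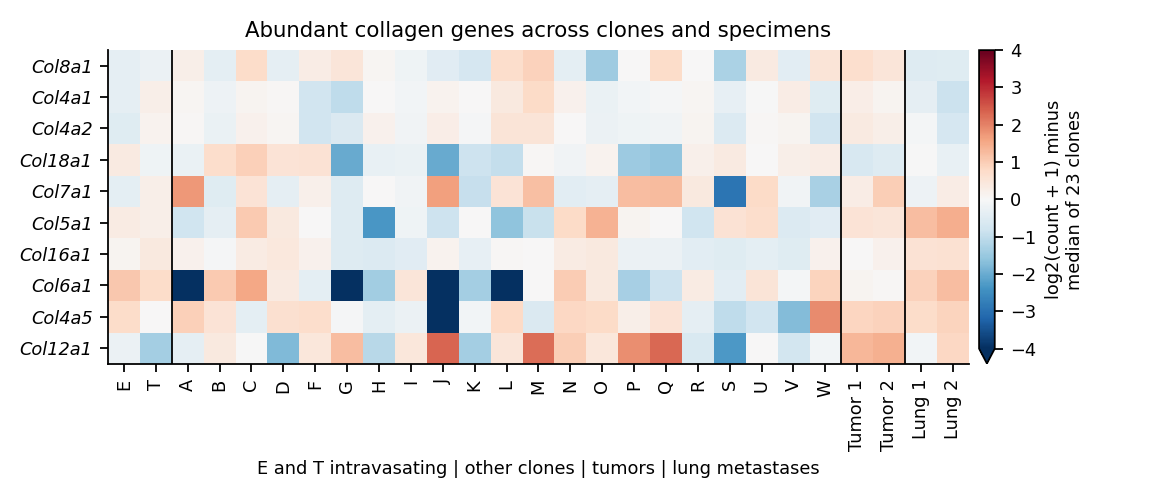
Heat map of the 10 collagen genes with a clone median of at least 50 normalized counts (rows, most abundant on top) in 23 clones, 2 tumors and 2 lung metastases (columns). Colour is log2 of the normalized count + 1 minus the median of the 23 clones for that gene, limited to 4 on either side; the darkest blue cells are Col6a1 in clones A, G, J and L and Col4a5 in clone J.

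The clones differed from each other in most collagens, about as often as in other genes. Of 28 members that passed the filter among the clones, 25 differed by the moderated F-test over 46 libraries, and 95.1% of all 13637 genes did so too. Col4a3, Col10a1 and Col14a1 were not past the threshold. Among all pairs of clones, the median member differed in 41.9% of pairs and the median gene in 39.1%. The members with the most differing pairs were Col6a1 with 214, Col6a2 with 204, Col18a1 with 191 and Col8a1 with 188.

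Type VI collagen, a beaded filament that surrounds cells, joins the Col6a1 and Col6a2 chains to a longer one such as Col6a3. Col6a1 (chr10:76708792-76726168 on GRCm38) had a median of 475 counts over the clones, from 8.3 in clone L to 1380 in clone C. Clones A, G, J and L held 9.28, 18.1, 9.39 and 8.3 counts and stood apart below the other 19. In the order of levels, 4 of the 22 neighbouring pairs differed, namely C from E, S from Q, Q from P and H from G, the last being the edge of the low group. Within the low group, A, G, J and L were not told apart from their neighbours.

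Col6a2 had a clone median of 24.9 counts and a highest value of 141 in clone N. It had 0 reads in both libraries of clones A, G and L and 1 read in clone J, the same 4 clones in which Col6a1 was lowest. A count of 0 allows up to 3 reads per library, which is 2.62 to 3.67 normalized counts in A, G and L. Clone W went another way, with 883 counts of Col6a1 and 2.86 of Col6a2. Across the 23 clones the correlation of the deposited log2 values of Col6a1 and Col6a2 was r = 0.74 (Spearman's rho 0.67), and 0.66 without clones L and J, the farthest from the Col6a1 median. The genes lie 85.2 kb apart on chromosome 10. All clones and libraries were normalized together, so points share that step.

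Col18a1 lies 326 kb from Col6a1 on the same chromosome and ranged from 449 counts in clone G to 3569 in clone C, with a median of 1827. Its r with Col6a1 was 0.74 over the clones, a pair singled out after its values were seen. It overlaps Slc19a1, and since the strand setting of the counting is not stated, reads of the overlap cannot be told apart. Neighbouring levels of Col18a1 differed for 3 of 22 pairs, H from K, L from P and Q from J.

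Basement membrane chains varied in 2 ways. Col4a1 and Col4a2 were high in every clone. Col4a1 had a median of 3709 counts, from 1834 in clone G to 6247 in clone M, and Col4a2 a median of 2946, from 1716 in clone F to 4242 in clone L. The top clone for Col4a1, M, differed from the next, L, and no other neighbours in the Col4a1 order did, nor did any in the Col4a2 order. The 2 chains had r = 0.91 across clones (rho 0.91), and r was 0.94 without clones G and M. They are transcribed in opposite directions from chromosome 8, and their annotated starts overlap by 22 bases.

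Col4a5, whose chain forms another basement membrane trimer and is mutated in Alport syndrome, had no read in 1 clone. It was at 0 reads in both libraries of clone J, a limit of 3.83 and 5.85 normalized counts, and 988 ± 193 counts (SD, n = 2 libraries) in clone W, the highest. The clone median was 265. Clone W differed from A, clone S from V, and V from J in the order of levels. Its partner on the X chromosome, Col4a6, begins 1308 bases away and reached at most 29.8 counts in a clone, with 0 in clone M. The pair had r = 0.58 over 23 clones and 0.39 without J and W. Col4a3 and Col4a4, 71 bases apart on chromosome 1, had clone medians of 5.19 and 8.15 counts.

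**Figure D2:**
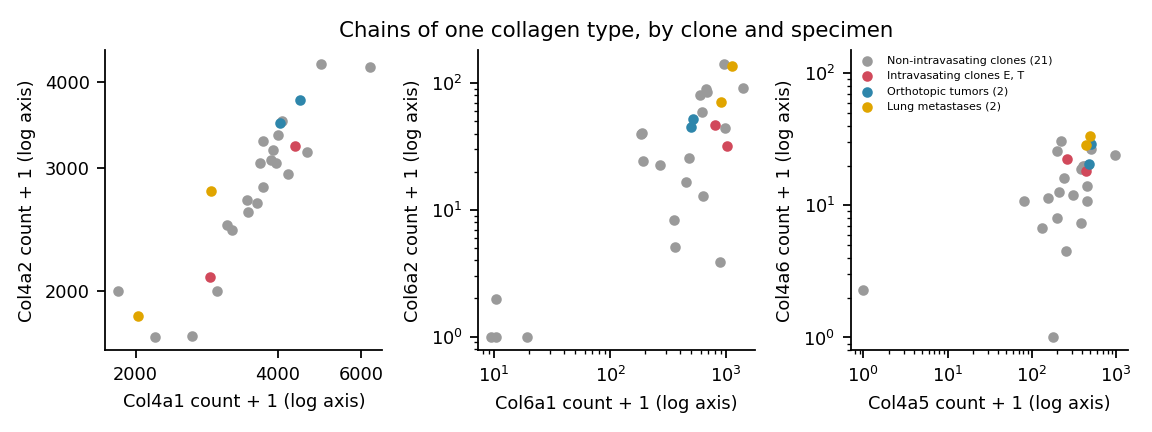
Normalized count + 1 on log axes for 3 pairs of chains of 1 collagen type, with a point for each of 23 clones, 2 tumors and 2 lung metastases. Col4a1 and Col4a2 lie along 1 band, the 4 clones low in Col6a1 are also at the floor or close to it in Col6a2, and clone J stands alone at 0 in Col4a5.

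Col7a1, the anchoring fibril, spanned 165 counts in clone S to 4122 in clone A, with a median of 1247. Only clone S differed from its neighbour in the order, W. Col12a1, a fibre-associated collagen of dense tissue, ran from 32.9 in clone S to 847 in clone J, with a median of 167. Col8a1 ran from 2027 in clone O to 10213 in clone M around a median of 5400, and Col5a1, the type V chain that starts fibrils, from 121 in clone H to 1601 in clone O around 613. Col16a1, another fibre-associated chain, moved least among the abundant members, from 344 in clone H to 678 in clone D. Among the 45 pairs of the 10 abundant members the median r was 0.07, with 6 pairs above 0.5 and 1 below -0.5.

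Some collagens had low medians over the clones and far higher values in some of them. Col23a1, a membrane-spanning collagen, had a median of 4.31 counts, but 162 in clone O and 130 in clone G. Clone G differed from the next in order, E, with 33.8, the mean of 66.7 in library A and 0.801 in library B. Col27a1, a fibrillar chain of cartilage, reached 190 in clone J against a median of 10.5, and J differed from the clone below it. It was spread more widely, with a read in all 54 libraries and 86.8 counts in clone I, 73.3 in U and 64.6 in C. Col24a1, another fibrillar chain, reached 55.5 in clone G with a median of 7.13. Col17a1, the membrane-spanning chain of hemidesmosomes, stayed between 11.4 and 82.2 counts.

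No collagen was called between intravasating and non-intravasating clones. None of the 28 tested members passed the limma threshold between E and T and the other 21 clones, and 0% of all genes did. At an unadjusted p under 0.05 stood 109 genes, none of them a collagen, and no alternative fit called a collagen. Col6a1 had 1010 and 796 counts in E and T, against a median of 447 in the others, and a difference of 1.39 ± 1.0 (SE) with an adjusted p of 1.0. Clone C lay above both, and B, N and W lay between E and T, so the groups overlap.

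E and T themselves differed in 7 of 28 members. Compared library by library, 15.3% of all genes were higher in E and 13.4% higher in T. Col4a5, Col12a1, Col18a1, Col22a1 and Col23a1 were higher in E, and Col4a1 and Col4a2 in T. The Col23a1 call rests on library A of E, with 66.7 counts against 0.801 in its library B. Clone T held 0.914 and 2.11 counts of Col23a1. Col4a1 had 2874 counts in E and 4335 in T, a difference of -0.58, E minus T, with an adjusted p of 4.1e-04. Col12a1 had 143 in E and 64.2 in T. Nothing separates here the difference between clones from any between their cultures.

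Tumors carried fibrillar collagens that the clones nearly lacked. Of 33 tested members, 10 were higher in the tumors than in the 23 clones and 0 lower, where 4.15% of all genes were higher and 1.43% lower. The median difference of the 33 was 0.45, against 0.04 for all genes. By family, 5 of 10 tested fibrillar members rose, 2 of 8 basement membrane members, and 1 each of type VI and its relatives, the short-chain networks and the fibre-associated types. Of the 33, 5 passed the filter only through the specimens (Col3a1, Col5a2, Col5a3, Col6a3 and Col11a2), so their difference was built into the filter. The count of 10, the counts by family and the median difference of the 33 are therefore descriptions.

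Type I collagen, the main fibre of skin, bone and stroma, is made of Col1a1 and Col1a2. Col1a1 (chr11:94936224-94953042, GRCm38) ran from 0 to 11.5 counts in the clones (median 1.55). Tumor 1 held 53.7, Tumor 2 held 52.4, Lung 1 held 45.5 and Lung 2 held 337. All 4 specimens were above every clone, and Lung 2 was far above the other specimens. The difference was 1.36 ± 0.17 (SE) for tumors against clones, with an adjusted p of 3.4e-06, and 2.26 ± 0.26 for lung metastases, with an adjusted p of 3e-07.

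Col1a2 (chr6:4504814-4541544) had a clone maximum of 15.1, in clone P. Its values were 34.9 and 34.0 in the tumors and 40.1 and 315 in the lung metastases. As with Col1a1, all 4 specimens were above every clone and Lung 2 was the highest. The 2 chains had r = 0.66 over the clones, where both are at few counts.

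Type III, which mixes with type I in soft tissue and vessels, is encoded by Col3a1 (chr1:45311538-45349706). It had 0 counts in 19 of 23 clones and at most 1.61. Tumor 1 held 28.9, Tumor 2 held 8.85, Lung 1 held 14 and Lung 2 held 199. Both tumors and both lung metastases were above all clones. The type V partners Col5a2 and Col5a3, which join type I fibres, had clone maxima of 1.61 and 4.48. Col5a2 was 17.3 and 24.5 in the tumors and 9.55 and 105 in the lung metastases, and Col5a3 17.3, 20.3, 16.4 and 47.5 in the same order. In Col5a1, their fibril-starting partner, the tumors (892 and 854) lay inside the range of the clones and were not called.

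**Figure D3:**
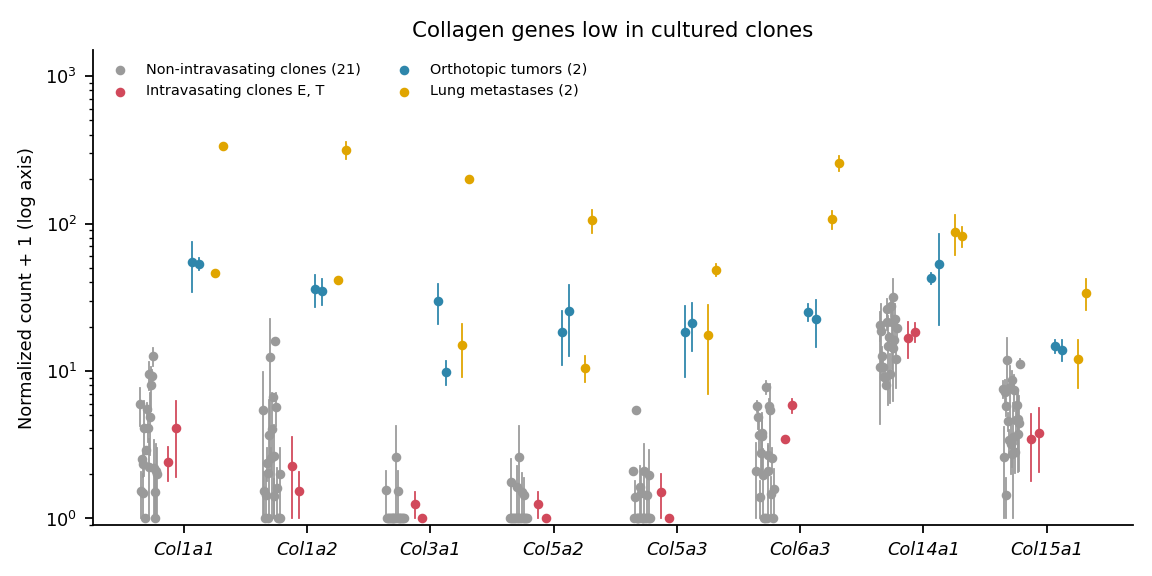
Normalized count + 1 (log axis) of 8 collagen genes that are low in the clones, with a point for each clone or specimen and a bar from its library A to its library B. For Col1a1 to Col6a3 the tumors and lung metastases lie above every clone, and Lung 2 is the higher metastasis.

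Col6a3 (chr1:90765923-90843971) completes the type VI filament. It ran from 0 to 6.76 counts in the clones, against 24.1 and 21.4 in the tumors and 106 and 257 in the lung metastases. Its difference in the lung metastases was 2.51 ± 0.18 (SE). Col6a3 was among the 5 members that passed the filter only through the specimens, so this value is a description. No clone exceeded 6.76 counts of Col6a3, clone C with its 1380 counts of Col6a1 included. Col14a1, a fibre-associated chain, had 7.1 to 30.9 counts in the clones, tumors at 41.7 and 51.8 and lung metastases at 86.7 and 81. Tumor 2 rests on its library B, with 84.1 counts against 19.4 in library A, which is inside the range of the clones, and without library B the difference from the clones fell from 0.62 to 0.37 and was not called. Col15a1, a basement membrane zone chain, had a clone maximum of 11, with tumors at 13.8 and 12.9 and lung metastases at 11 and 33.1, so Lung 1 sat level with the highest clone.

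The bases before the start sites of Col3a1 and Col6a3 are shown because both genes were near 0 in the clones and present in all 4 specimens. They are the 250 bases that end at the annotated start, from RefSeq on the GRCm38.p6 build, at chr1:45311288-45311537 on the plus strand for Col3a1 and chr1:90843972-90844221 on the minus strand for Col6a3. Letters are lower case, with capitals for a TATA box, searched as TATAAA.
Col3a1: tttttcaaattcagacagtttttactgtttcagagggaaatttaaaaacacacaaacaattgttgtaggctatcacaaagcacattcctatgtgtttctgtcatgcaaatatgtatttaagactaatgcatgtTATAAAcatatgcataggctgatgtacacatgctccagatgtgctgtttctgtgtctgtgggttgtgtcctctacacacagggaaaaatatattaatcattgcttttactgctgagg
Col6a3: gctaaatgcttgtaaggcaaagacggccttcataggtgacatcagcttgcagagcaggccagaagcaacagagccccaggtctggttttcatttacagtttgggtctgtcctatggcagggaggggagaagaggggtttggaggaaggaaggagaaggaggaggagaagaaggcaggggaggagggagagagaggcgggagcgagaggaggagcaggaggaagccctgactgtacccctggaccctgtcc
The search read both strands of the 250 bases before each start for TATAAA. It did the same for the CCAAT box, searched as CCAAT. The GC box was searched as GGGCGG, and matches of different motifs may share bases. Col3a1 held TATAAA 117 bases before its start and Col6a3 held none of the 3 motifs. TATAAA occurred in 12.4% of all 32851 windows, the CCAAT box in 33.8% and the GC box in 32.7%. Of the 35 members with a window, 5 held TATAAA, 13 a CCAAT box and 21 a GC box. A gene can have more than 1 window, as Col6a2 has, so these counts of genes cannot be set against the shares of windows. A match is only a match of letters, and no table row gave a window for Col1a1 or Col5a2.

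Lung metastases raised the same 10 members as the tumors and 6 more. Of 33 tested members, 16 were higher than in the clones and 0 lower, where 11.5% of all genes were higher and 5.94% lower. The 16 include all 5 members that passed the filter only through the specimens, so this count and its split by family are descriptions too. Both comparisons use the same 23 clones, so their counts share that group. By family they were 7 of 10 fibrillar members, 3 of 8 of basement membranes, 2 of 5 of type VI and its relatives, 3 of 6 fibre-associated types and 1 of 2 short-chain networks. The 6 more were Col4a3, Col6a5, Col9a3, Col11a2, Col20a1 and Col24a1. Col24a1 had 70.7 and 77.3 counts in the lung metastases against 0 to 55.5 in the clones. Its call and that of Col10a1 were lost on leaving out either metastasis. That of Col4a4 was lost without Lung 1 and that of Col15a1 without Lung 2. The difference of Col24a1 was 1.30 with both metastases, 1.34 without Lung 1 and 1.26 without Lung 2. Without library A of both metastases, which detect the most genes, 11 members were called, and Col4a3, Col6a5, Col9a3, Col11a2 and Col20a1 were not among them. The 5 just named had at most 29.2 counts in a lung metastasis, and Col9a3 overlaps Tcfl5 while Col10a1 overlaps Nt5dc1, whose reads cannot be told apart from theirs.

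Col10a1, a short-chain collagen of hypertrophic cartilage, had 48.8 and 70.6 counts in the tumors and 57.2 and 48.3 in the lung metastases. The clones held 11.8 to 53, so the groups overlap. Col4a4 reached 22.3 and 34.5 in the tumors and 40 and 26 in the metastases, with clones up to 33.9. In the tumor comparison the calls of Col4a4, Col10a1, Col14a1 and Col15a1 were lost without Tumor 1, without Tumor 2 or without library B of Tumor 2, which leave 6 called. Counted by rank alone, both tumors were above all 23 clones in 8 of 33 members and both lung metastases in 13. The share over all tested genes was 4.09% and 8.83%. The 8 include Col3a1, Col5a2, Col5a3 and Col6a3, and the 13 include these and Col11a2, whose place above the clones the filter largely fixed, so nothing is read from the counts against those shares. Both specimens of a kind were below all clones in none of the 33, against 2.05% and 5.7% of genes.

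**Figure D4:**
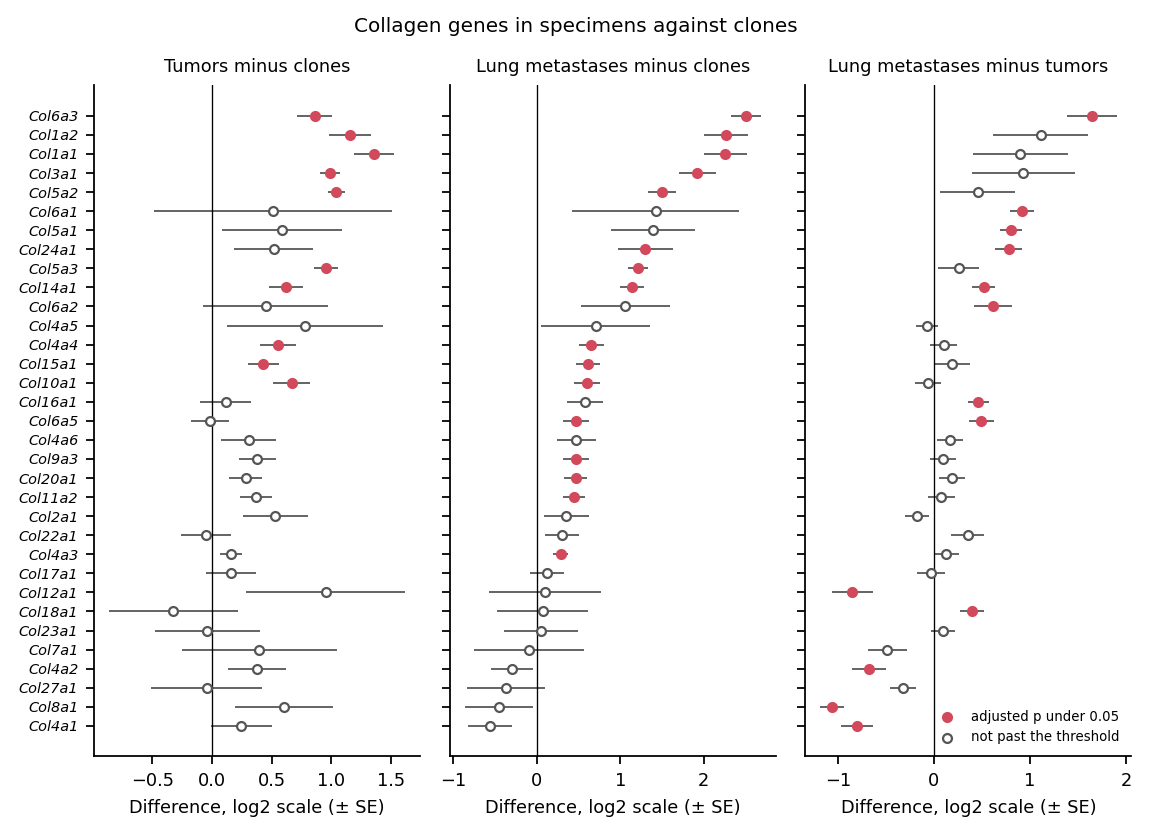
Difference on the deposited log2 scale (± SE) of the 33 tested collagen genes for tumors minus clones, lung metastases minus clones and lung metastases minus tumors, with genes in the order of the middle panel. Filled points passed an adjusted p of 0.05; Col6a3 heads the order at 2.51 in the middle panel and lies right of 0 in all 3.

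Lung metastases and tumors also differed from each other. Of 33 members, 9 were higher in the metastases and 4 lower, where 16.6% of all genes were higher and 14.8% lower. Each group has 2 specimens. Higher were Col5a1, Col6a1, Col6a2, Col6a3, Col6a5, Col14a1, Col16a1, Col18a1 and Col24a1. Without the A libraries of the metastases 5 were higher, and Col6a5, Col14a1, Col16a1 and Col18a1 lost their call, as did Col4a2 among the lower. With a spread shared by all 27 units Col6a3 alone was called. Type VI took 4 of the 9. Col6a5 reached the 10 counts of the filter only in the A libraries of the metastases, 21.6 and 13.2. It was tested only because the metastases were high, so its place among the 9 is a description. Col6a1 was 900 and 1117 in the metastases against 517 and 492 in the tumors, and Col5a1 1456 and 1674 against 892 and 854.

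Lower in the metastases were the basement membrane pair, the type VIII chain and Col12a1. Col4a1 had 2887 and 2022 counts in the metastases and 4453 and 4032 in the tumors, and the difference was -0.80 ± 0.17 (SE) with an adjusted p of 0.0079. Col4a2 had 2783 and 1837 against 3759 and 3480. Col8a1 had 3796 and 3872 against 8596 and 7568, a difference of -1.06 ± 0.13 with an adjusted p of 6.8e-04. Col12a1, the fourth, had 154 and 297 against 423 and 453. In none of the 4 did metastases and tumors overlap, and all these values lie within the range of the clones.

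The type I, III and V chains that led against the clones were not called here, and their metastases differed widely. In all of Col1a1, Col1a2, Col3a1, Col5a2 and Col5a3, Lung 2 was above both tumors. Lung 1 was below both tumors in Col1a1, Col5a2 and Col5a3, between them in Col3a1 and above both in Col1a2. Without Lung 1, a fit whose spread comes from the 2 tumors alone and assumes that the lone metastasis varies like them, 14 members were higher, among them Col1a1, Col1a2, Col3a1, Col5a2, Col5a3 and Col15a1. Without Tumor 1 only 2 were higher and 1 lower, without Tumor 2 3 and 1, and with libraries B alone none was called.

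Among the other members with at least 50 counts in a unit, Col7a1 was 1542 and 2454 in the tumors and 1075 and 1544 in the metastases, and Col4a5 486 and 507 against 444 and 495; neither was called in a comparison of specimens. Col16a1, higher in the metastases than in the tumors, had 755 and 770 against 513 and 568. Col18a1 had 1794 and 1496 against 1168 and 1289, Col6a2 69.4 and 136 against 51.5 and 44.4, and Col24a1 70.7 and 77.3 against 19 and 32.2. All of these 4 were above the tumors in both metastases. Col23a1 and Col27a1 held at most 11.2 and 23.3 counts in the specimens, against clone medians of 4.31 and 10.5. Col17a1 lay between 37.9 and 63. In Col16a1 and Col24a1 both metastases were above every clone, where the highest values were 678 and 55.5 counts. In the other genes of this paragraph the specimens were inside the range of the clones.

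Markers of fibroblasts were measured beside these genes. Of 10 fibroblast markers, 4 passed the filter, of which 1 was higher in the tumors and 2 in the lung metastases than in clones, where 4.15% and 11.5% of all genes were higher. Their summed level was 144 to 3510 in the clones, 667 and 600 in the tumors, and 1682 and 3677 in the lung metastases. Lung 2 was the higher metastasis in this sum and in Col1a1. Lung 1 was above both tumors in the sum but below both in Col1a1 (45.5 against 53.7 and 52.4). Pdgfra makes up most of this sum in Lung 2 (3394 of 3677). It reached 1756 in a clone, below the highest clone sum of 3510, so other markers of the list add to that sum. The defining markers Lum, Dpt, Clec3b, Mfap4 and Tcf21 were at or near 0, at most 5.74 counts in any specimen, while Dcn, a small proteoglycan, had a clone median of 0.535 and a clone maximum of 71.8, with 73.3 and 52.9 counts in the tumors and 65.8 and 204 in the metastases. Of the endothelial markers, 2 of 5 tested were higher in the tumors and 4 of 6 in the metastases, and of the leukocyte markers 4 of 7 and 5 of 8. The larger lists in the metastases hold genes that passed the filter only with them, so these counts are descriptions. Summed endothelial markers were 74.3 to 227 in the clones, 153 and 164 in the tumors and 192 and 209 in the metastases. All specimens thus lay inside the range of the clones. Summed leukocyte markers were 90.6 to 1412 in the clones, 430 and 407 in the tumors and 389 and 769 in the metastases. The part of these cells in the collagen values was not tested, and in bulk RNA fewer cells of a type cannot be told apart from less RNA per cell.

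The enzymes and partners of collagen are given by list, beside the shares of all genes called against the clones, which were 4.15% higher and 1.43% lower in the tumors and 11.5% higher and 5.94% lower in the lung metastases. Of 16 modification and folding genes tested in the tumors, 0 were higher, and of 17 tested in the lung metastases 4 were higher and none lower. Plod1, which hydroxylates lysine for cross-links, had 641 and 806 counts in the metastases, 329 and 288 in the tumors and 99.7 to 469 in the clones. Of 5 cross-linking lysyl oxidases, 2 were higher in tumors and 3 in metastases, the 3 being Lox, Loxl1 and Loxl2. Lox had at most 1.04 counts in a clone and 56.6 in Lung 2, so it passed the filter only through specimens. A list with more genes tested in the metastases than in the tumors gained genes that passed only with the metastases. The counts by list are therefore descriptions. Of 10 tested collagen-binding matrix genes 3 were higher in the tumors (Bgn, Dcn and Ogn, small proteoglycans) and 5 in the metastases. Bgn had 67.6 and 51.8 counts in the tumors and 28.6 and 271 in the metastases, with at most 9.44 in a clone.

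Of 9 receptors, 3 were higher and 1 lower in the lung metastases than in clones. Mrc2, the receptor that takes up collagen fragments, had 88.9 and 102 counts there against a clone median of 8.27. Itgb1, the common chain of the collagen-binding integrins, was lower, with 7455 and 10464 counts against a median of 25111. Of 6 tested collagen-degrading proteases 3 were higher, among them Mmp2 with 34.2 and 93.4 counts in the metastases and at most 10.4 in a clone. Pcolce, which promotes the trimming of procollagen ends, was higher in metastases (3631 and 3394) than in tumors (1916 and 1658), within the clones' range.

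The remaining members stayed low everywhere. The 11 that passed no filter are Col6a4, Col6a6, Col8a2, Col9a1, Col9a2, Col11a1, Col13a1, Col19a1, Col25a1, Col26a1 and Col28a1, with fewer than 10 counts in every clone and specimen. Col2a1, the main collagen of cartilage, reached 42.3 counts in clone R, and its specimens lay between 13.3 and 22.6. Col22a1, found at tissue junctions, had a median of 0.6 over the clones and reached 14.7 in clone O.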

How the data were processed

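The authors deposited 1 table of log2 values per gene and library, made from RNA-seq of 54 libraries. The submitters' processing notes list the tools Bowtie2, HTSeq and DESeq and the genome build mm10. For the tool versions and for strand in counting, nothing is given in the sources used here. RNA was amplified before library preparation, per the labels' protocols. The values have the form of a variance-stabilising transform with a floor of 5.03. Solving it gave normalized counts, and dividing by the smallest nonzero value of a library gave whole reads, with 100% within 0.01 of a whole number; all tests used the deposited scale.

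The unit is a clone or specimen, as the mean of libraries A and B. Genes with at least 10 normalized counts in at least 2 libraries of a comparison were tested with limma 3.58.1 in R 4.3.3 (trend, moderated, two-sided, Benjamini-Hochberg over all tested genes); differences among clones used a moderated F-test over libraries. Scripts were tested on simulated data. Exon lengths and positions come from GENCODE vM21 (GRCm38, the assembly of mm10), and sequences from RefSeq. The letters A and B showed no consistent pairing of libraries over the units. Over 351 pairs of units the correlation of deviations ran from -0.65 to 0.62 and was above 0.1 in 39.9%. Whether libraries share batches that cut across the letters was not tested. Members and lists were chosen with earlier results of these data known. Values in every specimen are given for members with at least 50 counts in a unit that passed a test, or with at least 500; partner genes named are those with the largest differences and at least 50 counts, apart from Lox and its relatives, which were chosen after their values were seen. Depth limits genes with few counts, and 3 reads were taken as the limit that 0 allows, for counting error only. Alternatives were another transform, no filter, median centring, no trend, a spread shared by all units, 1 letter alone, leaving out units and a replicate block; leaving out library B of Tumor 2 or the A libraries of the metastases, and ranks from 1 letter alone, was chosen after seeing the data.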

Additional observations from a re-analysis of the deposited data

How the results depend on the processing

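For tumors against clones, 10 collagens were higher. The count was 6 with libraries A alone, without library B of Tumor 2, with the unit as a replicate block and on leaving out either tumor (6 to 6). Col1a1, Col1a2, Col3a1, Col5a2, Col5a3 and Col6a3 kept their call in every alternative, though the last 4 of these were tested only because the specimens were high. For lung metastases against clones, 16 were higher; 27 were without a filter, 10 with libraries B alone and 8 to 8 on leaving out either metastasis, and 11 with the replicate block. For lung metastases against tumors, 9 higher and 4 lower became 1 and 0 with a spread shared by all 27 units and 0 and 0 with libraries B alone; without a filter 1 was lower, and without the A libraries of the metastases 5 were higher. Leaving out 1 specimen gave 2 to 14 higher and 1 to 5 lower. The cause of these shifts was not tested. With 2 specimens a group, 1 specimen can decide a call, and a specimen left alone is assumed to vary like the other group. Between intravasating and other clones no alternative called a collagen, the replicate block included. No call changed its direction.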

Other observations

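Genes whose levels over the 23 clones most resembled a leading collagen were read off by correlation among 13637 genes, as a description. For Col4a1 the closest was Col4a2, with r = 0.91, followed by Adam9, a membrane-bound metalloproteinase, at 0.87. For Col8a1 the closest were Krt83 at 0.83, Faah at 0.80 and Krt7 at 0.80. For Col6a1 they were Dap at 0.88, Ank at 0.86, Tmem74 at 0.84 and Olfm1 at 0.82.

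Around Col6a1 on chromosome 10, the genes between and beside the collagens varied in how they followed it over the clones. Pcbp3, which lies between Col6a1 and Col18a1, had r = 0.29 with Col6a1, Ybey 0.51, Pofut2 0.11, Mcm3ap -0.06, Lss -0.26 and Slc19a1 -0.58. These relations were looked at after the values of the collagens were seen.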
